A study of Glycine max with 6 samples.

Results

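Kunitz and Bowman-Birk protease inhibitors of the soybean (Glycine max) were followed in cotyledons, the storage organs of the seed, taken at a weight of 150 mg. The members were all soybean probe sets, each a group of short oligonucleotides for 1 target, whose platform gene symbol begins with BBI- or KTI, which gave 8 of 37593 soybean probe sets and 6 genes. The Kunitz genes were KTI1, KTI3 and KTI-2 with 1 probe set each and KTI-3 with 2, and the Bowman-Birk genes were BBI-2 with 1 and BBI-1 with 2. Of the 8 probe sets, 7 passed the filter on low signal and were tested. The hyphen in the rule decides which Bowman-Birk genes enter: the genes with the symbols BBI and D-II (listed in RefSeq with the synonym BBI-DII) lie outside it and are described beside the members, having been chosen after their values were seen.

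The arrays came from 3 samples: a first transgenic line carrying RNA interference (RNAi) for storage protein suppression, a second, independent line of the same kind, and a nontransgenic control, called jack in 1 description. In RNAi, double-stranded RNA directs the degradation of transcripts that match it. There were 6 arrays, 2 technical replicates of every sample. The labels give neither the promoter and target genes of the construct nor the number of seeds in a sample. With a single control sample, genotype and sample handling cannot be told apart.

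Kunitz and Bowman-Birk inhibitors are the main protease inhibitors of the soybean seed. They bind serine proteases such as trypsin and chymotrypsin through an exposed loop that mimics a substrate. Kunitz inhibitors are the larger proteins, with few disulfide bonds, and Bowman-Birk inhibitors are small, rich in cysteine and able to hold a pair of proteases at once. Both accumulate in protein storage vacuoles and lower the feeding value of raw soybean meal.

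Values are the deposited probe set signals, on a linear scale. Array background, taken as the 95th percentile of probe sets for other organisms, ran from 74.2 to 91.7 on the RNAi arrays and stood at 75.6 and 68.4 on the control arrays. The number of arrays limits the precision. Differences are in log2(signal + 16), RNAi minus control, and the median of the 27460 tested soybean probe sets was 0.016. The 4 pairs of arrays from different lines correlated at 0.983 to 0.987 over tested probe sets, the 3 pairs from the same sample at 0.985 to 0.987, and the 8 pairs of an RNAi with a control array at 0.956 to 0.963. Cotyledon storage markers were bright, with control ranks from 4 to 465 at 13 probe sets. Of these, 5 were called lower in the RNAi lines, against 0.594% of all tested probe sets (1.05% were called higher). They were the probe sets of GY2, CG-BETA-1 and the glycinin gene GY3, which averaged 1773 on RNAi arrays and 19426 on control arrays. Those of GY1, GY4, GY5, LOX1.1 and LOX3 were not called. Signals summed over 10 seed coat marker probe sets ran from 8738 to 10255 on RNAi arrays, against 19290 and 20364 on control arrays. Here 2 were called higher (SCB1, DFR1) and 2 lower (SBPRP and 1 of PRP2), while PRP1 was below background. DFR1 was below background on both control arrays and passed the filter through the RNAi lines alone. This favours a difference above 0, so its call is a description only. Over 10 leaf marker probe sets the sums were 15449 to 16085 on RNAi arrays and 22612 and 22929 on control arrays. Here 2 probe sets of VSPA were called higher. The dimmer of these in the control, with 91.1 and 59.7, was above background on 1 of 2 control arrays. It passed the filter through the RNAi lines alone, so its call is a description only. Of the 6 leaf marker probe sets tested, 3 had differences above 0 and 3 below. The brightest, those of LOC547819, lay below the control on all RNAi arrays, with log2 differences of -0.69 and -0.66, and were not called (limma adjusted p = 0.0627 and 0.0660). The part of these markers in the results that follow was not tested. The spiked-in poly-A control RNAs had geometric means of 1826 to 1944 on RNAi arrays, against 5538 and 5736 on control arrays. Scaled to them instead, the median of all tested probe sets moved to 1.52, and directions below are relative to the deposited scaling.

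In the control, the members fell into 2 ranges of signal. The 5 Kunitz probe sets ranked between 17 and 800 of the 37593 soybean probe sets, all within the brightest 2.13%, while the brightest Bowman-Birk member ranked 16273. A rank orders probe set signals and not transcript amounts, since probe sets differ in brightness per transcript. KTI1 ranked 17 and KTI3, which encodes the classical trypsin inhibitor of the seed, ranked 30. KTI-2 followed at 350, and the KTI-3 probe sets at 627 and 800. BBI-1 stood at 27088 at its brighter probe set, with 1 of 2 control arrays above background, and at 37388 at its dimmer one, below background on all 6 arrays.

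Dim signal was not a feature of all Bowman-Birk genes. D-II, a Bowman-Birk isoinhibitor, ranked 6 in the control and BBI, the classical Bowman-Birk inhibitor, ranked 18, next to KTI1. D-II had 50588 and 44049 in RNAi line 1 and 47460 and 62962 in RNAi line 2, against 64446 and 63982 in the control (log2 difference -0.34, limma adjusted p = 0.202). BBI had 47299 and 40653 in line 1 and 42980 and 57809 in line 2, against 57721 and 54684 in the control (log2 difference -0.26, limma adjusted p = 0.256). D-II was lower on all 4 RNAi arrays and BBI overlapped, neither was called, and on the array labelled line 2 replicate 2 both came close to the control. By gene order in RefSeq (assembly Glycine_max_v4.0), BBI-1 and BBI-2 are next to each other with 0 protein-coding genes between them, and so are KTI3 and KTI-1.

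**Figure D1:**
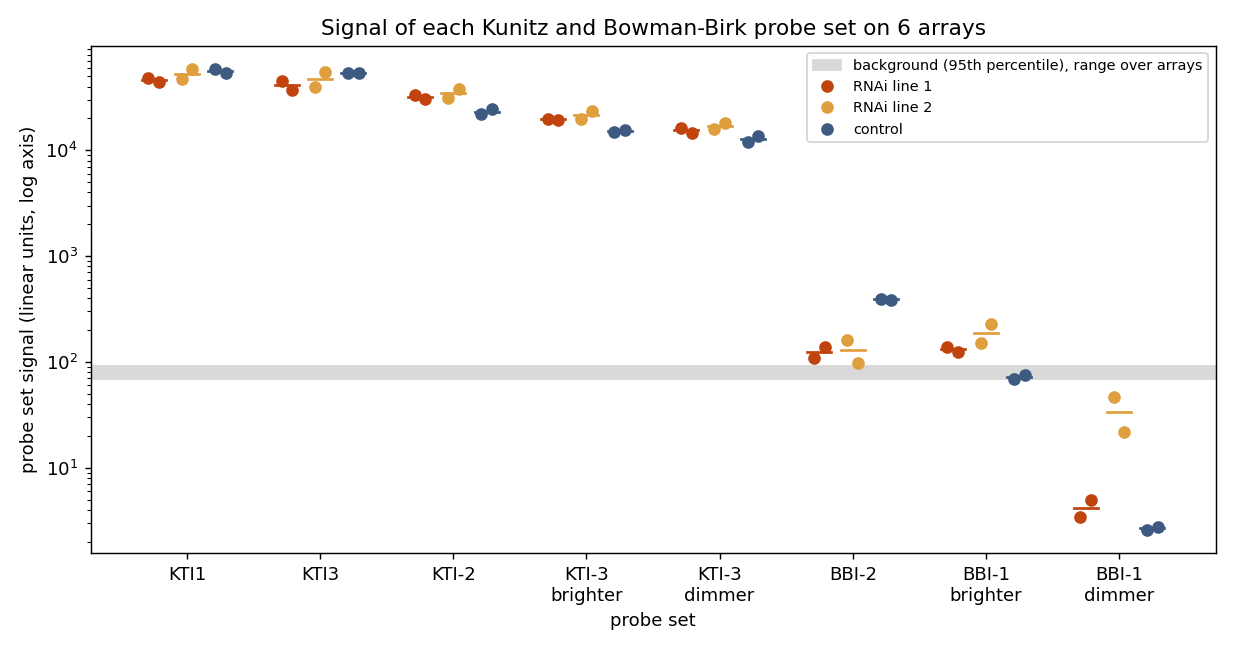
Signal of each member probe set (log axis) on the 2 arrays of RNAi line 1, RNAi line 2 and the control, with horizontal bars at the sample means and the range of background over the 6 arrays in grey. The 5 Kunitz probe sets lie far above background on every array, BBI-2 is lower on all 4 RNAi arrays than in the control, and the dimmer BBI-1 probe set lies below background throughout.

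Both RNAi lines were first compared with the control, to see whether inhibitor transcripts differ where storage proteins are suppressed. Of the 7 tested members 1 was called at a limma adjusted p below 0.05, BBI-2, which fell, against 1.64% of all tested probe sets called in either direction, 1.05% called higher and 0.594% called lower. KTI-2, both KTI-3 probe sets and BBI-1 had higher signals on all 4 RNAi arrays than on both control arrays but missed the threshold. KTI1 and KTI3 overlapped between lines and control. All 4 RNAi arrays lay above both control arrays in 4 of the 7 and below both in 1, where 25.9% and 23.6% of all tested probe sets did so (49.5% in either direction), and the count by itself is no result about the members. BBI-1 is among those above, and it passed the filter through the RNAi lines alone. In bulk tissue, fewer cells of a type and less transcript per cell cannot be told apart.

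BBI-2 encodes a Bowman-Birk type inhibitor. Its signals were 110 and 138 in RNAi line 1 and 161 and 98.7 in RNAi line 2, against 395 and 387 in the control. All 4 RNAi arrays lay well below the control arrays and were still above background, but not far above it. On line 2 replicate 2 the background was 91.7. The 99th percentile of other organisms' probe sets was 116 on line 1 replicate 1 and 139 on line 2 replicate 2. On these arrays BBI-2 lay below that stricter level. The lines averaged 127 ± 4.19 (SD, n = 2 lines) and the control 391, a 3.13-fold fall (log2 difference -1.53, SE 0.10, limma adjusted p = 0.0488). Against the control alone, line 1 had a log2 difference of -1.55 (SE 0.23, limma adjusted p = 0.0184) and line 2 one of -1.51 (SE 0.23, limma adjusted p = 0.0183). These comparisons share the control arrays, and their p-values measure only the spread between technical replicates. Among the 18199 tested probe sets with control signals under 1000, 0.44% had a difference as low.

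The call of BBI-2 depended on the RNAi arrays. So did all other calls in the comparison of both lines with the control. They were lost when any 1 RNAi array was left out, and also after quantile normalization. When 1 of the 4 RNAi arrays was left out the limma adjusted p lay between 0.0732 and 0.116, without either control array between 0.0400 and 0.0428, and the log2 difference stayed between -1.69 and -1.37. Quantile normalization ended the call too (adjusted p = 0.0715), and scaling to the spiked-in RNAs gave a log2 difference of -0.060 (adjusted p = 0.588). The call for line 1 was lost without either of its own arrays or either control array (limma adjusted p 0.0719 to 0.0904), and that for line 2 without line 2 replicate 2 or either control array (0.0572 to 0.0775). With the spiked-in RNAs as the scale, line 1 had -0.077 and line 2 -0.043 (limma adjusted p = 0.764 and 0.865).

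BBI-1, the other Bowman-Birk member, lay on the opposite side at its brighter probe set. Signals were 140 and 123 in RNAi line 1 and 151 and 227 in RNAi line 2, against 69.3 and 75.3 in the control. The control values sat at background, above it on 1 of 2 arrays, and the 4 RNAi arrays were all above it. This probe set passed the filter through the RNAi lines alone, which favours a difference above 0, so its values are a description: a log2 difference of 0.96 (SE 0.23, limma adjusted p = 0.10) for both lines, 0.74 (limma adjusted p = 0.0651) for line 1 and 1.19 (limma adjusted p = 0.0218) for line 2. The value for line 2 missed the threshold without line 2 replicate 2 (limma adjusted p = 0.0622) or either control array (0.0895 and 0.0755). The difference between the lines was 0.45 (limma adjusted p = 0.885). At the dimmer BBI-1 probe set, signals were 3.45 and 4.91 in line 1 and 46.2 and 21.7 in line 2, against 2.58 and 2.78 in the control, all below background, so it has neither a fold nor a test. The brighter one carries the suffix _s_at, which Affymetrix gives to probes that can match more than 1 transcript.

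The Kunitz genes divided into a pair of probe sets with differences below 0 and 3 above it. None of the 5 was called by limma on the 3 sample means, 3 had an unadjusted p below 0.05, and 33.1% of all tested probe sets did. Their median log2 difference was 0.36, with a range from -0.30 to 0.52.

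KTI-2, a Kunitz inhibitor gene, had the largest difference of them. The only KTI-2 probe set also carries the suffix _s_at, so it can match other transcripts too. Its signals were 33014 and 30405 in RNAi line 1 and 31146 and 38310 in RNAi line 2, against 21855 and 24433 in the control. Every RNAi array was brighter than both control arrays, the lowest by more than the gap between the control arrays. The means were 33219 ± 2134 (SD, n = 2 lines) in the lines and 23144 in the control, 1.43-fold higher (log2 difference 0.52, SE 0.11, limma adjusted p = 0.0900). By rank of signal KTI-2 stood at 129 in line 1 and 127 in line 2, against 350 in the control. Of the 849 tested probe sets with control signals from 10000 to 30000, 2.83% had a difference at least as high, and the median of that range was -0.080.

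KTI-3 gave like values at both of its probe sets. The suffix _s_at is on the brighter one but not on the dimmer. The brighter had 19859 and 19503 in RNAi line 1 and 19871 and 23580 in RNAi line 2, against 14827 and 15488 in the control, a log2 difference of 0.45 (SE 0.12, limma adjusted p = 0.112). The dimmer had 16406 and 14648 in line 1 and 15754 and 18226 in line 2, against 11847 and 13501 in the control, a log2 difference of 0.36 (SE 0.12, limma adjusted p = 0.145). Again no RNAi array overlapped the control arrays at either probe set. In the same range of control signal, 4.12% and 5.89% of probe sets had differences at least as high. The ratio of the brighter to the dimmer probe set ran from 1.21 to 1.33 on RNAi arrays and was 1.25 and 1.15 on control arrays, with the brighter ahead on all 6 arrays.

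For line 2 alone, the brighter KTI-3 probe set was called (log2 difference 0.51, SE 0.12, limma adjusted p = 0.0444), a call that was lost whichever of the 6 arrays was left out. KTI-2 just missed the threshold in line 2 (0.58, SE 0.14, limma adjusted p = 0.0509). In line 1 the differences were 0.46 for KTI-2 (limma adjusted p = 0.0900) and 0.38 and 0.29 for the KTI-3 probe sets (limma adjusted p = 0.0919 and 0.191). In line 1, 1 of 7 members was called, BBI-2, against 14.3% of all tested probe sets (7.97% higher and 6.32% lower). In line 2, of the 6 tested members other than BBI-1, 2 were called, BBI-2 lower and KTI-3 at its brighter probe set higher, against 15.4% of all tested probe sets (8.48% higher and 6.91% lower). BBI-1, also past the threshold in line 2, is left out of this count because of how it passed the filter.

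**Figure D2:**
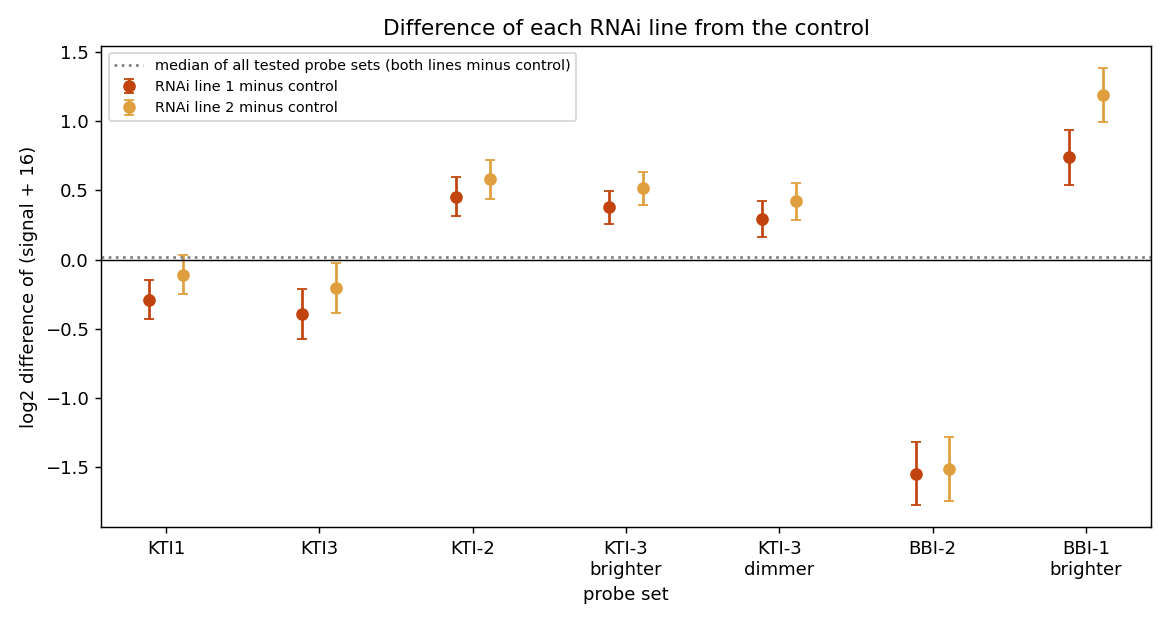
Log2 difference of each tested member for RNAi line 1 and RNAi line 2 against the control, with standard errors from the fit on 6 arrays, which measure technical spread. BBI-2 lies at -1.55 and -1.51, the KTI-2 and KTI-3 probe sets lie between 0.29 and 0.58, and KTI1 and KTI3 lie below 0.

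KTI1 and KTI3, the brightest members, had no called difference. KTI1 had 48027 and 44074 in RNAi line 1 and 46772 and 58161 in RNAi line 2, against 58607 and 54084 in the control (log2 difference -0.20, SE 0.13, limma adjusted p = 0.353). KTI3 had 44947 and 37193 in line 1 and 40008 and 54299 in line 2, against 53848 and 53464 in the control (log2 difference -0.30, SE 0.13, limma adjusted p = 0.223). In both genes 3 RNAi arrays were below the control arrays and the array labelled line 2 replicate 2 was not below both. Without that array KTI1 and KTI3 no longer overlapped with the control, nor did 56.4% of all tested probe sets, against 49.5% with all arrays. The sign for KTI1 turned to 0.030 after quantile normalization, and with arrays scaled to the spikes KTI1 and KTI3 had 1.38 and 1.28.

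These values followed those of other bright probe sets, array by array. The 205 tested probe sets at or above 30000 in the control had a median difference of -0.20 with a median absolute deviation of 0.072, and 52.7% had a difference at least as high as that of KTI1. For KTI3 this share was 84.4%. Relative to the control mean, the median of these bright probe sets was -0.18 and -0.32 on the line 1 arrays and -0.28 and 0.041 on the line 2 arrays. KTI1 had -0.23 and -0.35 in line 1 and -0.27 and 0.047 in line 2, and KTI3 had -0.26 and -0.53 in line 1 and -0.42 and 0.017 in line 2. A further probe set, shared by KTI3 with the symbols TI-A and TI-B and therefore named for none, ranked 51 and had a log2 difference of -0.13 (limma adjusted p = 0.578).

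**Figure D3:**
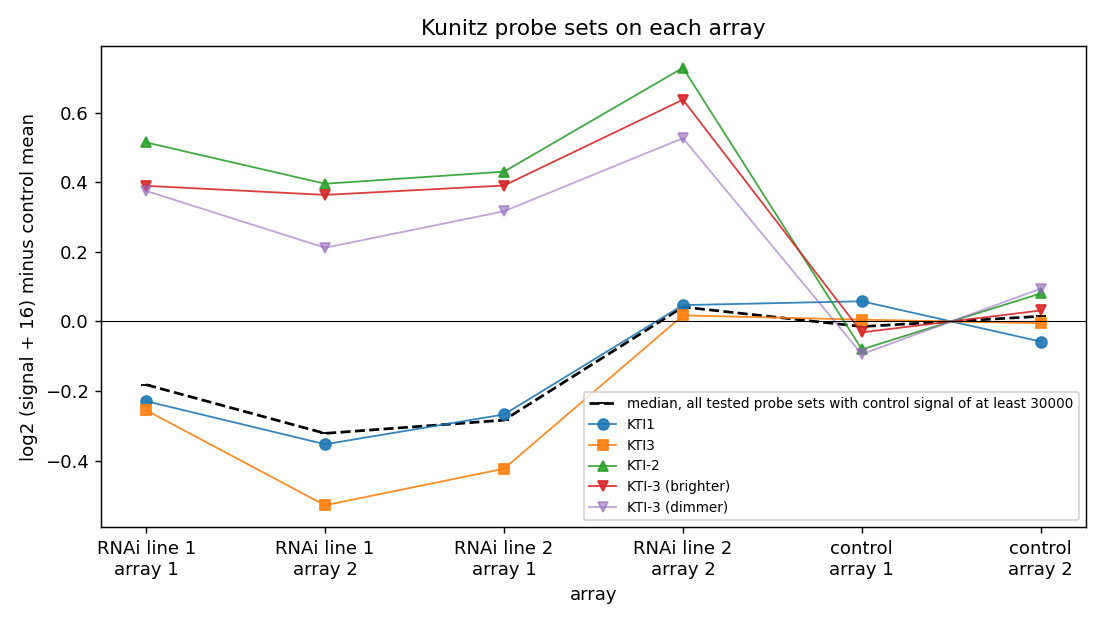
Deviation of each Kunitz probe set from its control mean on each of the 6 arrays, in log2(signal + 16), with the median of all tested probe sets at or above 30000 in the control as a dashed line. KTI1 and KTI3 run near the dashed line, the KTI-2 and KTI-3 probe sets lie above it on all 4 RNAi arrays, and every Kunitz probe set is higher on the array of line 2 replicate 2 than on the other 3 RNAi arrays.

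**Figure D4:**
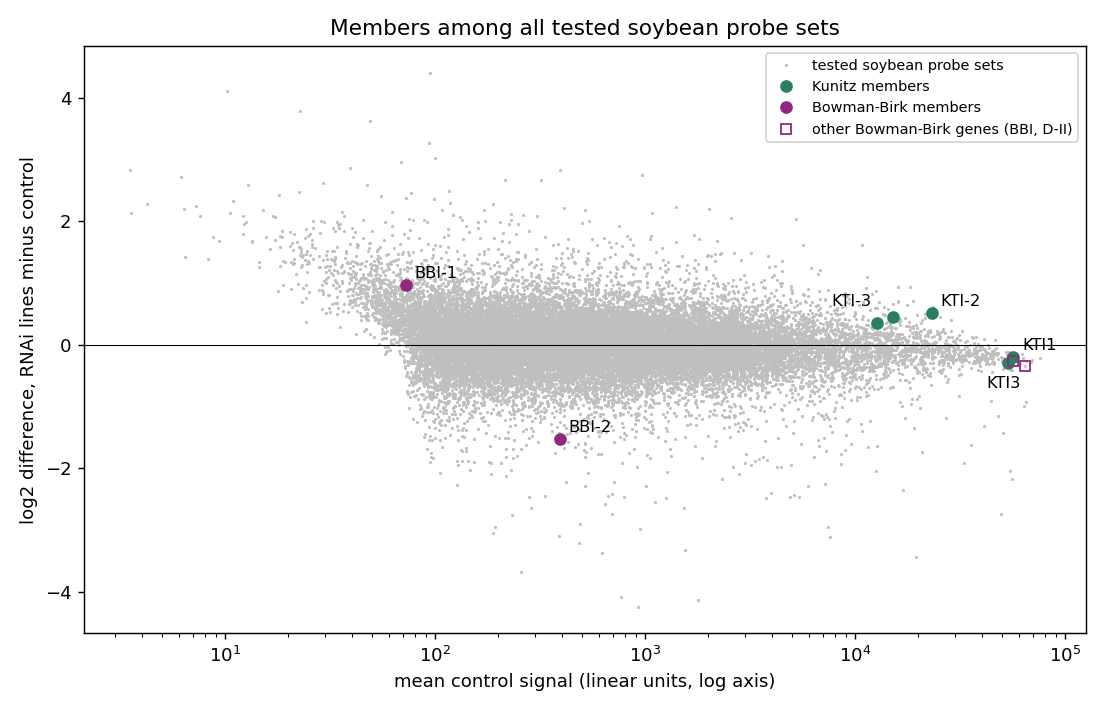
Log2 difference between the RNAi lines and the control against mean control signal (log axis) for all 27460 tested soybean probe sets in grey, with the members in colour. KTI1 and KTI3 lie at the bright end beside the Bowman-Birk genes BBI and D-II. The KTI-2 and KTI-3 probe sets lie in the upper part of the grey points for their signal, and BBI-2 lies near the lower edge.

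The last comparison set RNAi line 2 against RNAi line 1. By limma 0 of 27460 tested probe sets were called (0% of all) and 1598 (5.82%) had an unadjusted p below 0.05, none of them a member. The members' differences ran from 0.033 for BBI-2 to 0.45 for BBI-1, all above 0, with KTI1 at 0.18, KTI3 at 0.19, KTI-2 at 0.12 and the KTI-3 probe sets at 0.14 and 0.13. Without line 2 replicate 2 those of KTI3 and KTI-2 were -0.031 and -0.025.

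Other protease inhibitors were looked up by a fixed list of gene symbols, and those found were cystatins, which act on cysteine proteases. Of 6 tested probe sets 0 were called by limma, 3 had differences above 0 and the median was -0.0030. R1, below background on both control arrays, had 200 and 297 in RNAi line 1 and 168 and 182 in RNAi line 2, against 22.9 and 49.2 in the control, at least 2.87-fold higher. It passed the filter through the RNAi lines alone, so its limma adjusted p of 0.0531 is given as a description. CYSTATIN had a log2 difference of 0.34 (limma adjusted p = 0.128), and the 4 probe sets of L1 lay between -0.33 and 0.096.

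Seed proteases had 0 of 8 probe sets called by limma, with a median of 0.31 and 6 above 0. SOYAP1, an aspartic protease gene, had 0.65 and 0.44 (limma adjusted p = 0.0656 and 0.103), the cysteine protease gene CYSP1 had 0.53 (limma adjusted p = 0.151) and the vacuolar processing enzyme gene VPE2 had -0.54 (limma adjusted p = 0.126) at 1 of its probe sets. Among 8 probe sets listed for other abundant seed proteins that are not the main globulins, 2 were called higher and 0 lower, and the median was -0.21. Of all tested probe sets 1.05% were called higher and 0.594% lower. SBP65, a biotin-containing seed protein, rose by 1.71, and the basic globulin gene BG7S-2 by 2.23 (limma adjusted p = 0.0488 for each). Their control signals were not among the brightest, with ranks of 5817 and 7180. HPS, a hydrophobic seed protein gene, had -0.37 (limma adjusted p = 0.115). GM2S-1, a sulfur-rich albumin gene of the seed, had -0.33 (limma adjusted p = 0.142) and ranked 32 in the control, beside KTI3.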

How the data were processed

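Total RNA was labelled with a one-cycle kit and hybridised to an Affymetrix array, per the labels. The authors deposited 1 signal per probe set, a linear intensity, and the main fits used these signals without rescaling. The median signal was lowest on control replicate 2 (57.8) and highest on line 2 replicate 2 (72.4). Geometric means of the poly-A spikes were 1826 to 1944 on RNAi arrays, against 5538 and 5736 on control arrays. A scale common to all arrays was therefore not established. Software is not given in the sources used here. Gene names came from the platform annotation. All 8 member probe sets were found in the RefSeq gene table with the same symbol. Probe sets with several symbols were named for no gene.

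A soybean probe set was tested if above the 95th percentile of other organisms' probe sets on both arrays of at least 1 sample, which left 27460. Fits used limma 3.58.1 in R 4.3.3 on log2(signal + 16), with Benjamini-Hochberg adjustment over all tested probe sets, two-sided. The comparison of both lines with the control used sample means (1 residual degree of freedom, prior 2.36). Single lines were fitted on 6 arrays (3 residual degrees of freedom, prior 2.35). A probe set below background on both control arrays has a bound: mean log2 signal of the RNAi arrays against the control arrays at background.

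Named are all members, up to 4 genes of largest difference in each further list, and the 3 nearest patterns to BBI-2. The members and lists were chosen with earlier results of these data known; the lists rest on symbols alone. Alternatives were quantile normalization, median centring, scaling to poly-A spikes (24 probe sets), pseudocounts of 1 and 64, other filters, an intensity trend, robust moderation, arrays as replicates, the sample as a random block, the replicate number as a block, and each array left out. The fits were run on simulated data in which arrays varied by technical spread alone, so this did not check the spread between samples. Replicate numbers did not pair the samples (correlations of deviations 0.017, 0.015 and -0.0075).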

Additional observations from a re-analysis of the deposited data

How the results depend on the processing

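With 1 residual degree of freedom the count of calls over all tested probe sets, 451, moved with nearly every choice. It was 0 after quantile normalization, median centring, a pseudocount of 1, no filter or robust moderation, 3547 with a pseudocount of 64, 3323 with the stricter filter, 8517 with an intensity trend, 5987 with arrays as replicates, 10196 with the sample as a random block, 26511 with arrays scaled to the spikes and 0 to 1884 without 1 array. In the 9 limma fits with 0 calls, 6193 to 9084 probe sets had an unadjusted p below 0.05. Members called, 1 of 7, numbered 0 in those same fits, 6 with arrays scaled to the spikes, 5 with a trend, 4 with arrays as replicates, 5 with the random block and 0 to 1 without 1 array. With the technical replicate number as a block, 4485 probe sets and 2 members were called, against 5987 and 4 on the same arrays without the block, and the block ended the call of KTI-3 in line 2 (adjusted p = 0.0683). The members called with spikes, a trend, arrays as replicates and either block include BBI-1. It passed the filter through the RNAi lines alone, so its place in these counts is a description only. Each count without an array that leaves a sample with 1 array assumes that it varies like the others. The random block fit had a correlation of -0.29 between arrays of a sample. A value below 0 gives technical replicates at least the weight of independent samples, so the counts of that fit rest on technical spread.

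Members called in line 1, 1 of 7, were 3 after quantile normalization, 6 with spikes and 0 to 2 without 1 array, where 3986, 26449 and 329 to 2518 of all 27460 tested probe sets were called. In line 2, with 3 of 7 (BBI-1 included), they were 6 with spikes and 0 to 2 without 1 array, where 26464 and 527 to 2045 of all were called. After quantile normalization 4 of 7 members were called in line 2 (KTI-2, the brighter KTI-3 probe set, BBI-2 and BBI-1), with 4352 of all. The Kunitz median of 0.36 was 1.94 with spikes and 0.26 to 0.45 without 1 array, and the Bowman-Birk median was 1.09 with spikes. The Bowman-Birk median rests on BBI-2 and BBI-1 alone. BBI-1, which passed the filter through the RNAi lines alone, is also among the members counted for each line. Members with RNAi arrays beyond the control arrays, 5 of 7, numbered 5 to 7 without 1 array, 5 after quantile normalization and 6 with spikes, alternatives chosen after seeing the data. Of all tested probe sets 54.1% to 67.3%, 49.7% and 96.9% did so, and these counts are no result about the members.

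Signs turned in these cases, and the cause was not tested. After quantile normalization KTI1 had 0.030 for both lines, 0.011 for line 1 and 0.048 for line 2. With spikes, where the median of all tested probe sets was 1.52, KTI1 had 1.38, 1.29 and 1.47 and KTI3 1.28, 1.19 and 1.38 for both lines, line 1 and line 2. Without 1 array, line 2 against the control ranged from -0.27 to 0.047 for KTI1 and from -0.42 to 0.017 for KTI3, above 0 without line 2 replicate 1. Between the lines BBI-2 had -0.0032 after quantile normalization and -0.28 to 0.35 without 1 array (-0.11 without line 1 replicate 1, -0.28 without line 2 replicate 1), while KTI3 ranged from -0.031 to 0.41 and KTI-2 from -0.025 to 0.27, below 0 without line 2 replicate 2. The directions of KTI-2 and KTI-3 in both lines against the control held under each of these settings. BBI-1 also stayed above 0, but its pass of the filter through the RNAi lines alone favours that. Its control signals lie at background, so its sign is a description only.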

Other observations

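By the distance between profiles over the 6 arrays, each centred on its control mean in log2(signal + 16), the patterns most like that of BBI-2 among 1182 named probe sets were those of AAH, an allantoate amidohydrolase gene of nitrogen metabolism, at 0.51 and 0.54 for its 2 probe sets, and of the ferritin gene H-1 at 0.52. AAH averaged 473 on RNAi arrays and 1268 on control arrays at the nearer one (log2 difference -1.40, limma adjusted p = 0.0514) and had -1.37 at the other (limma adjusted p = 0.0596). H-1 averaged 2149 on RNAi arrays and 6703 on control arrays (log2 difference -1.63, limma adjusted p = 0.0488). These probe sets were picked for likeness to BBI-2 on the same arrays. A fall near that of BBI-2 follows from this choice, so their values are a description.

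A probe set shared by the symbols P20-1 and KTI-1 was below background on all 6 arrays, with signals of 6.92 and 41.5 in RNAi line 1 and 46.9 and 4.15 in RNAi line 2, against 2.59 and 2.79 in the control. In the RefSeq table KTI-1 lies next to KTI3, whose own probe set ranked 30 in the control.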
